A study of Mus musculus with 32 samples.

Results

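Malat1, Neat1, Miat, Snhg11, Gas5 and Pvt1 are long noncoding RNAs that were measured in mouse amygdala under stress and after injection of 4-thiouridine (4sU). They were taken by symbol from the deposited exon count tables and are 6 of the 25239 genes there. All samples were total RNA of wild-type (WT) mice. The amygdala of both sides had been injected 24 h before extraction with 4sU, a uridine analogue that marks new RNA, at 100 mM in DMSO, or with DMSO, and the RNA was alkylated. Chronically stressed mice gave 4 libraries with 4sU and 3 with DMSO, acutely stressed mice 5 with 4sU and 5 with DMSO, and baseline mice without stress 5 with 4sU and 4 with DMSO. The labels give neither the age or strain of the mice nor the kind and length of stress, and do not say whether a library is 1 mouse. The p-values below therefore measure the spread between libraries, which may in part be technical.

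Long noncoding RNAs act as RNA and are not translated, and many stay in the nucleus. Malat1 gathers in nuclear speckles beside splicing factors, Neat1 is the scaffold on which paraspeckles are built, and Miat (also called Gomafu) forms a nuclear compartment of its own in neurons and binds splicing factors. Snhg11 and Gas5 are host genes whose introns carry small nucleolar RNAs (snoRNAs). The spliced Gas5 RNA is also found in the cytoplasm, where it is degraded while translated, and in human cells it can bind the glucocorticoid receptor as a decoy for DNA. Pvt1 lies beside Myc and in mouse and human is known for its part in Myc regulation and in tumours.

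The genes have different shapes on mm10. Malat1 (chr19:5795690-5802672, minus strand) and Neat1 (chr19:5824710-5845480, minus strand) are each counted as 1 exon block, of 6983 and 20771 bases, and lie 22038 bases apart. Miat (chr5:112213228-112228948, minus strand) is counted over 7 exon blocks and 8760 bases, and Snhg11 (chr2:158375713-158386474, plus strand) over 5 blocks and 6118 bases. Gas5 (chr1:161034916-161038539, plus strand) has 12 short blocks that add up to 751 bases. Pvt1 (chr15:62037986-62260212, plus strand) spreads 11 blocks with 5059 bases over 222227 bases of genome. Of the 23996 3′ UTR intervals in which T-to-C conversions were deposited, 0 overlapped any of the 6 genes, so only their total level was measured in the amygdala and not their newly made share.

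The starts of transcription are shown because a start within a run of C and T marks the host genes of snoRNAs, Gas5 among them, whose RNAs follow translation. RefSeq windows of 30 bases around the annotated start (GRCm38.p6, the patch release of the mm10 build) were given for 4 of the 6 genes, with Gas5 listed at 2 starts. They are printed 5′ to 3′ on the gene's own strand, and capitals mark a run of at least 6 C or T.
Gas5, start at 161035166: agccgccatctcagCCTTTCggagctgtgc
Gas5, start at 161034601: agggggcgggcccgcgagctcgacagcccg
Snhg11: cgcactgcggcactcactcacgcactcagc
Miat: gaggctcgcagtagCCCCTTTgtgaggcgc
Malat1: ctccgggctctgcgtcaggcattcaggcag
The inner Gas5 start and the Miat start lie at such a run, and the Snhg11, Malat1 and outer Gas5 starts do not. Such a run stood in 29.2% of the 32851 start windows of all genes. The glucocorticoid half-site TGTTCT, searched on both strands in the 300-base promoter, had 0 matches in the 5 promoters of these genes, against a match in 18.97% of the 32851 promoters, which says only that these letters are not in these windows.

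Exon counts summed to 16150316 to 21228741 per library, and the 26 libraries held between 255 and 418 counts of Pvt1, the least counted gene, and between 29486 and 63423 counts of Snhg11. T-to-C conversion over all 3′ UTR intervals was 0.0400% to 0.0778% in 4sU libraries and 0.0228% to 0.0318% in DMSO libraries, with no overlap. The libraries also fell into a division that the labels do not name. The 10 libraries of baseline and acute mice with 4sU had 16.1% to 17.4% of their reads in 3′ UTR intervals, and the other 16 had 18.2% to 23.9%. A comparison that crosses this division cannot be told apart from it. This holds for 4sU against DMSO in baseline and in acute mice, and for chronic mice against baseline or acute mice within the 4sU arm. It also holds for the difference between arms in the chronic change from baseline, which contains that arm. Acute DMSO replicate 2 stood alone at 23.9%. The 12 glutamatergic neuron markers had a mean of 4.41, 3.75 and 4.61 log2 CPM in acute DMSO replicates 1, 3 and 4 and of 4.37 in chronic DMSO replicate 1, against a median of 5.95 over all libraries. These libraries, more than 1 log2 unit below that median, are the ones called low in glutamatergic markers below. Chronic 4sU replicates 3 and 4 came next, at 5.06 and 5.135, and are not among them. The amygdala markers Prkcd, Rspo2 and Cyp26b1 were counted in every library, at 31.4 to 86.0, 1.83 to 16.7 and 17.3 to 79.1 CPM.

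Levels are CPM (read counts scaled to library size), adjusted by TMM factors, and per kilobase of counted exon where genes are set beside each other. Per kilobase, Snhg11 was the most abundant of the 6 with a mean of 419 over the 26 libraries. Gas5 followed at 119.8, Malat1 at 82.0, Miat at 52.6, Neat1 at 11.2 and Pvt1 at 3.67. By CPM alone Snhg11 ranked 6 among all 25239 genes, Malat1 177 and Pvt1 8811. The ranges over libraries of Malat1 (43.9 to 129) and Gas5 (79.0 to 197) overlap per kilobase, while those of Neat1 (5.95 to 19.5) and Pvt1 (2.87 to 4.57) do not. Together the 6 genes took 0.282% to 0.502% of a library's exon counts. Within the Malat1 exon the table also lists mascRNA, the tRNA-like piece cut from its 3′ end, at 0 in all 26 libraries. How reads that fall in both genes were counted is not given, so this 0 does not show that mascRNA was absent.

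**Figure D1:**
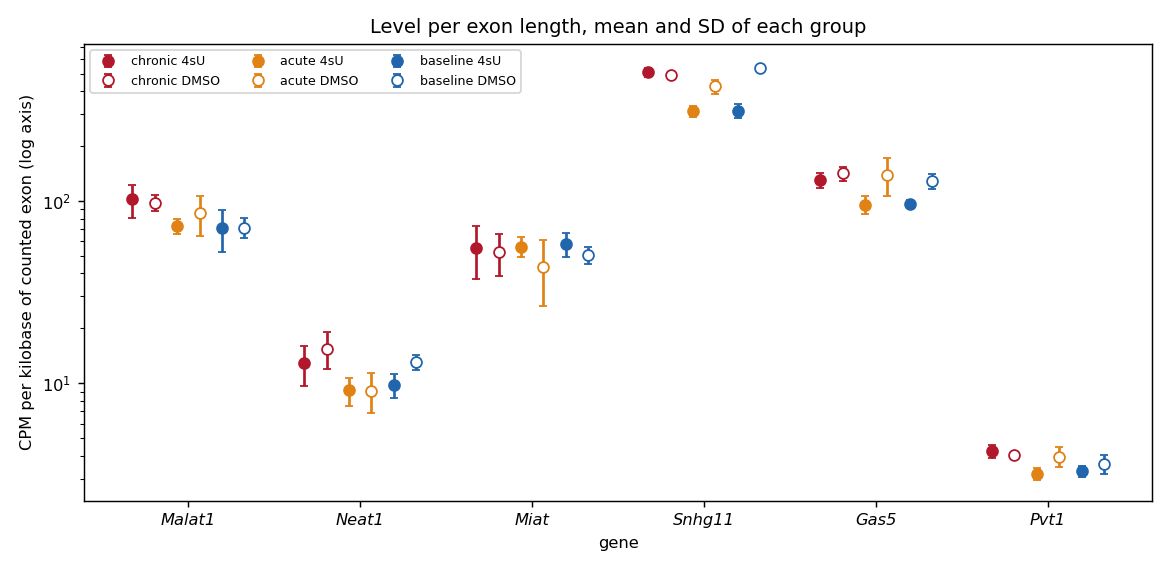
Level of each gene per kilobase of counted exon (log axis) in the 6 groups, as mean and SD of 3 to 5 libraries. Snhg11 lies highest and Pvt1 lowest in every group, and Malat1 and Gas5 come close to each other.

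Snhg11 separated the libraries into a lower and a higher set. In chronic mice it had 3031, 3067, 3356 and 2975 CPM with 4sU and 3065, 2942 and 3043 CPM with DMSO. In acute mice it had 1830.5, 2139, 1815, 1822 and 1889 CPM with 4sU and 2862, 2243, 2595, 2609 and 2713 CPM with DMSO. In baseline mice it had 2079.6, 1796, 1715, 1866 and 2085 CPM with 4sU and 3255, 3466, 3173 and 3288 CPM with DMSO. The baseline and acute libraries with 4sU, at 1715 to 2139 CPM, were the 10 lowest of all 26, and the other 16 lay at 2243 to 3466 CPM. The baseline DMSO group was highest (3296 ± 123 CPM, SD, n = 4), ahead of chronic 4sU (3108 ± 170, n = 4) and chronic DMSO (3017 ± 65.5, n = 3), which overlap each other. Acute DMSO came next (2604 ± 229, n = 5), and baseline 4sU (1908 ± 168, n = 5) and acute 4sU (1899 ± 137, n = 5) were not separated by their spread.

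Gas5 had the same 10 libraries at the bottom, at 59.3 to 81.4 CPM against 85.3 to 148 CPM in the other 16. In chronic mice it had 88.2, 91.6, 103 and 108 CPM with 4sU and 117, 99.0 and 104 CPM with DMSO. In acute mice it had 59.3, 72.7, 75.4, 69.9 and 81.4 CPM with 4sU and 90.6, 148, 105, 94.9 and 85.6 CPM with DMSO. In baseline mice it had 76.8, 68.2, 73.9, 72.8 and 69.2 CPM with 4sU and 93.7, 102, 85.3 and 104 CPM with DMSO. The highest value, 148 CPM, belongs to acute DMSO replicate 2, the library with the highest 3′ UTR share. Chronic DMSO (106 ± 9.30), acute DMSO (105 ± 25.2), chronic 4sU (97.7 ± 9.35) and baseline DMSO (96.5 ± 8.75) overlapped, and so did baseline 4sU (72.2 ± 3.49) and acute 4sU (71.7 ± 8.13).

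Malat1 had its highest means in both chronic groups. Their libraries overlapped those of acute mice with DMSO and baseline mice with 4sU, and lay above those of acute mice with 4sU and baseline mice with DMSO. It had 622, 743, 903 and 578 CPM in chronic mice with 4sU and 605, 714 and 733 CPM in chronic mice with DMSO. Acute mice had 550.2, 565, 458, 512 and 467 CPM with 4sU and 659, 356, 602, 753 and 611 CPM with DMSO. Baseline mice had 494, 307, 498, 504 and 665 CPM with 4sU and 425, 501, 491 and 575 CPM with DMSO. Its values in the 10 libraries with a low 3′ UTR share (307 to 665 CPM) overlapped those in the other 16 (356 to 903 CPM), unlike those of Snhg11 and Gas5.

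Neat1 had its highest mean in chronic mice with DMSO (321 ± 73.9 CPM, SD, n = 3), ahead of baseline mice with DMSO (272 ± 25.8 CPM, n = 4) and chronic mice with 4sU (267 ± 66.4 CPM, n = 4), and these 3 groups overlapped. Chronic mice had 361, 262, 207 and 237 CPM with 4sU and 405, 292 and 266 CPM with DMSO. Acute mice had 135, 197, 224, 201 and 192 CPM with 4sU and 124, 234, 233, 173 and 180.4 CPM with DMSO, and baseline mice had 168, 196, 249, 212 and 188 CPM with 4sU and 277, 292, 285 and 234 CPM with DMSO. Within 1 group Neat1 varied by 9.48% to 24.9% of the mean (coefficient of variation), against 2.17% to 8.79% for Snhg11.

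Miat had the widest spread within 1 group, with a coefficient of variation of up to 39.4%. Its means were 483 ± 157 and 458 ± 118 CPM in chronic mice with 4sU and with DMSO, 491 ± 61.6 and 383 ± 151 CPM in acute mice with 4sU and with DMSO, and 509.5 ± 76.9 and 441 ± 46.2 CPM in baseline mice with 4sU and with DMSO (SD, n as above). The 4 libraries low in glutamatergic markers had 323 CPM in chronic DMSO replicate 1 and 258, 329 and 296 CPM in acute DMSO replicates 1, 3 and 4, while the other libraries of those groups had 542 and 508 CPM in chronic mice and 391 and 638 CPM in acute mice. Chronic mice with 4sU had 644 and 592 CPM in replicates 1 and 2. Replicates 3 and 4 of that group, the next lowest in these markers, had 356 and 342 CPM. Pvt1 had means of 21.4 ± 1.72 and 20.3 ± 0.666 CPM in chronic mice with 4sU and with DMSO, 16.1 ± 1.19 and 19.99 ± 2.48 CPM in acute mice, and 16.6 ± 1.19 and 18.3 ± 2.17 CPM in baseline mice, in the same order of injections.

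**Figure D2:**
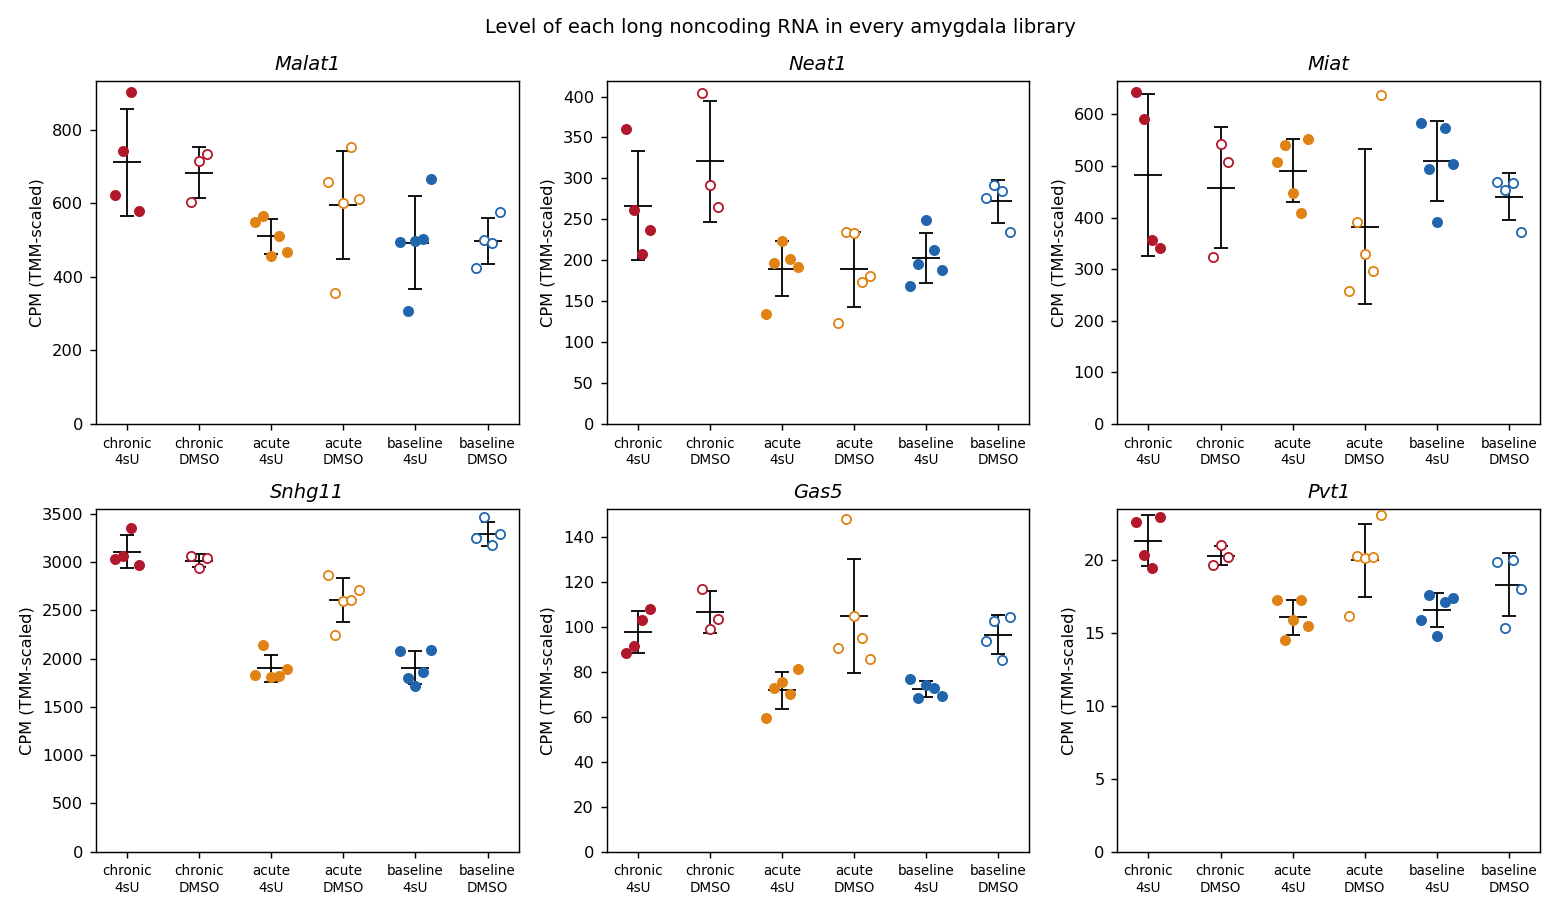
CPM of each gene in the 26 amygdala libraries, 4sU filled and DMSO open, with group mean and SD in black. Snhg11 and Gas5 are lowest in baseline and acute mice with 4sU, at 1715 to 2139 and 59.3 to 81.4 CPM, while Miat spreads as widely within groups as between them.

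After acute stress the log2 fold changes, averaged over both injection arms, ran from -0.30 for Neat1 to 0.16 for Malat1. For this average edgeR's quasi-likelihood test with Benjamini-Hochberg adjustment called 0 of the 6 at an adjusted p under 0.05, where it called 2.39% of 15995 genes. The largest mean difference was that of Neat1, at a log2 fold change of -0.30 ± 0.11 (SE, adjusted p = 0.22), and Snhg11 followed at -0.17 ± 0.06 (adjusted p = 0.15). DESeq2 also called 0 of the 6, and 667 of all genes. At an edgeR p under 0.05 before adjustment Neat1 and Snhg11 passed, and so did 2160 of the 15995 genes. In the same libraries the glucocorticoid targets answered. Tsc22d3, a receptor target that restrains inflammation, rose by 1.12 ± 0.11 (adjusted p = 4.7e-06), Sgk1, a hormone-induced kinase, by 1.68 ± 0.20 (adjusted p = 6.0e-05) and Fkbp5, a chaperone that damps the receptor, by 0.84 ± 0.11 (adjusted p = 0.00015). The receptor genes Nr3c1 and Nr3c2 were at -0.19 ± 0.08 (adjusted p = 0.28) and 0.02 ± 0.13 (adjusted p = 0.98), so 3 of the 5 genes of this axis rose.

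In mice with DMSO 1 of the 6 was called after acute stress, against 2.51% of all genes. Snhg11 fell to 2243 to 2862 CPM in acute mice, against 3173 to 3466 CPM in baseline mice, with no overlap (log2 fold change -0.32 ± 0.08, adjusted p = 0.036). That call was lost without acute DMSO replicate 3 (adjusted p = 0.062) or 4 (0.074), and without baseline DMSO replicate 1 (0.0947), 2 (0.122), 3 (0.0781) or 4 (0.071), and it kept its direction in each of these fits. It was also lost without a filter on low counts (adjusted p = 0.0585), and the difference was -0.40 without the 3 acute libraries low in glutamatergic markers (adjusted p = 0.0183). Neat1 was lower in all 5 acute DMSO libraries (124 to 233.9 CPM) than in the 4 baseline ones (234.3 to 292 CPM), but its difference of -0.51 ± 0.17 did not pass (adjusted p = 0.11).

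In mice with 4sU 0 of the 6 were called after acute stress, where 0.269% of all genes were. The differences ran from -0.09 ± 0.16 for Neat1 to 0.05 ± 0.18 for Malat1, and for Snhg11 the 95% interval was -0.15 to 0.14. The difference between the arms was called for 0 of the 6 genes and for 0% of all genes, with 916 genes at an unadjusted p under 0.05 and 20 called by DESeq2. For Snhg11 this difference was 0.32 ± 0.11 (adjusted p = 0.76), so the change seen with DMSO is not shown to differ from that with 4sU.

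The chronic comparisons differed between the injection arms. In mice with DMSO 0 of the 6 genes passed, and 0% of 16096 genes did, with 913 genes at an unadjusted p under 0.05 and 11 called by DESeq2. Malat1 was higher in each of the 3 chronic libraries (605 to 733 CPM) than in the 4 baseline ones (425 to 575 CPM), at 0.46 ± 0.21 (adjusted p = 0.88). Snhg11 was lower in each chronic library (2942 to 3065 CPM) than in each baseline one (3173 to 3466 CPM), at -0.12 ± 0.07 (adjusted p = 0.88). The 95% interval of Snhg11 (-0.26 to 0.01) leaves out a rise of the size seen with 4sU. Those of Malat1 (0.05 to 0.87) and Miat (-0.41 to 0.53) are wide. The interval of Malat1 leaves out 0, but its change did not pass after adjustment over all genes. For Miat a moderate change in either direction is not excluded.

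In mice with 4sU 4 of the 6 were higher in chronic than in baseline libraries, in a comparison that called 56.5% of all genes and 26.9% in the higher direction. Snhg11 rose 1.60-fold (0.68 ± 0.06, adjusted p = 1.7e-08), Gas5 1.33-fold (0.42 ± 0.07, adjusted p = 8.0e-05) and Pvt1 1.27-fold (0.34 ± 0.09, adjusted p = 0.0021), each with no overlap of the 4 chronic and 5 baseline libraries. Malat1 rose 1.42-fold with overlapping groups (0.51 ± 0.18, adjusted p = 0.030), and its call was lost without chronic 4sU replicate 3 (adjusted p = 0.112) or baseline 4sU replicate 1 (0.0512) or 3 (0.0507). Neat1 was at 0.37 ± 0.17 (adjusted p = 0.070), and passed with DESeq2 (0.0168) and without chronic 4sU replicate 3 (0.0268) or 4 (0.0492), baseline 4sU replicate 3 (0.0356) or chronic DMSO replicate 1 (0.0272). Miat was at -0.10 ± 0.21 (adjusted p = 0.72). This comparison crosses the division in 3′ UTR share, so the state of the mice and that division cannot be told apart.

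The Snhg11 change differed between arms by the test of the difference itself, at 0.81 ± 0.09 (4sU minus DMSO, adjusted p = 2.2e-06), where 38% of all genes were called. The 4sU arm of this test crosses the division in 3′ UTR share and the DMSO arm does not. A difference between arms therefore cannot be told apart from that division. Gas5 was at 0.27 ± 0.11 (adjusted p = 0.062) in that test, and passed with DESeq2 (adjusted p = 0.044), without a low-count filter (0.0498), with relative log expression factors (0.0441), without chronic DMSO replicate 1, the 1 library of these 4 groups low in glutamatergic markers (0.0135), and without chronic 4sU replicate 1 (0.0163) or 2 (0.0324) or baseline DMSO replicate 3 (0.0164). For Malat1, at 0.51 with 4sU and 0.46 with DMSO, the difference was 0.04 ± 0.28 (adjusted p = 0.92).

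Chronic mice were also set against acute ones. With 4sU 5 of the 6 were higher in chronic mice, where 47.2% of 16310 genes were called and 23.9% in that direction. These were Snhg11 (0.71 ± 0.07, adjusted p = 3.3e-08), Pvt1 (0.41 ± 0.09, adjusted p = 0.00088), Gas5 (0.45 ± 0.12, adjusted p = 0.0032), Neat1 (0.49 ± 0.18, adjusted p = 0.026) and Malat1 (0.48 ± 0.18, adjusted p = 0.032), all across the division. The Malat1 call was lost without chronic 4sU replicate 2 (adjusted p = 0.0666) or 3 (0.147), or without acute 4sU replicate 3 (0.069), 4 (0.0508) or 5 (0.0651). The Neat1 call was lost without chronic 4sU replicate 1 (0.16) or acute 4sU replicate 1 (0.077), and in a fit of the 4 chronic and acute groups alone (0.0539).

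With DMSO, in libraries on 1 side of the division, 1 of the 6 was called between chronic and acute mice, against 1.78% of all genes. Neat1 was higher, at 266 to 405 CPM in the 3 chronic libraries and 124 to 234 CPM in the 5 acute ones (0.77 ± 0.19, adjusted p = 0.036, 1.70-fold). The call was lost without chronic DMSO replicate 1 (0.57, adjusted p = 0.188), 2 (adjusted p = 0.0784) or 3 (0.0643), or without acute DMSO replicate 1 (0.0648) or 4 (0.0865), and in a fit of the 4 chronic and acute groups alone (0.78, adjusted p = 0.116). It was also lost at 0.45 (adjusted p = 0.229) without the 4 libraries low in glutamatergic markers, of which 3 were acute and 1 chronic. Snhg11 was at 0.21 ± 0.08 with no overlap of the groups (adjusted p = 0.21).

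**Figure D3:**
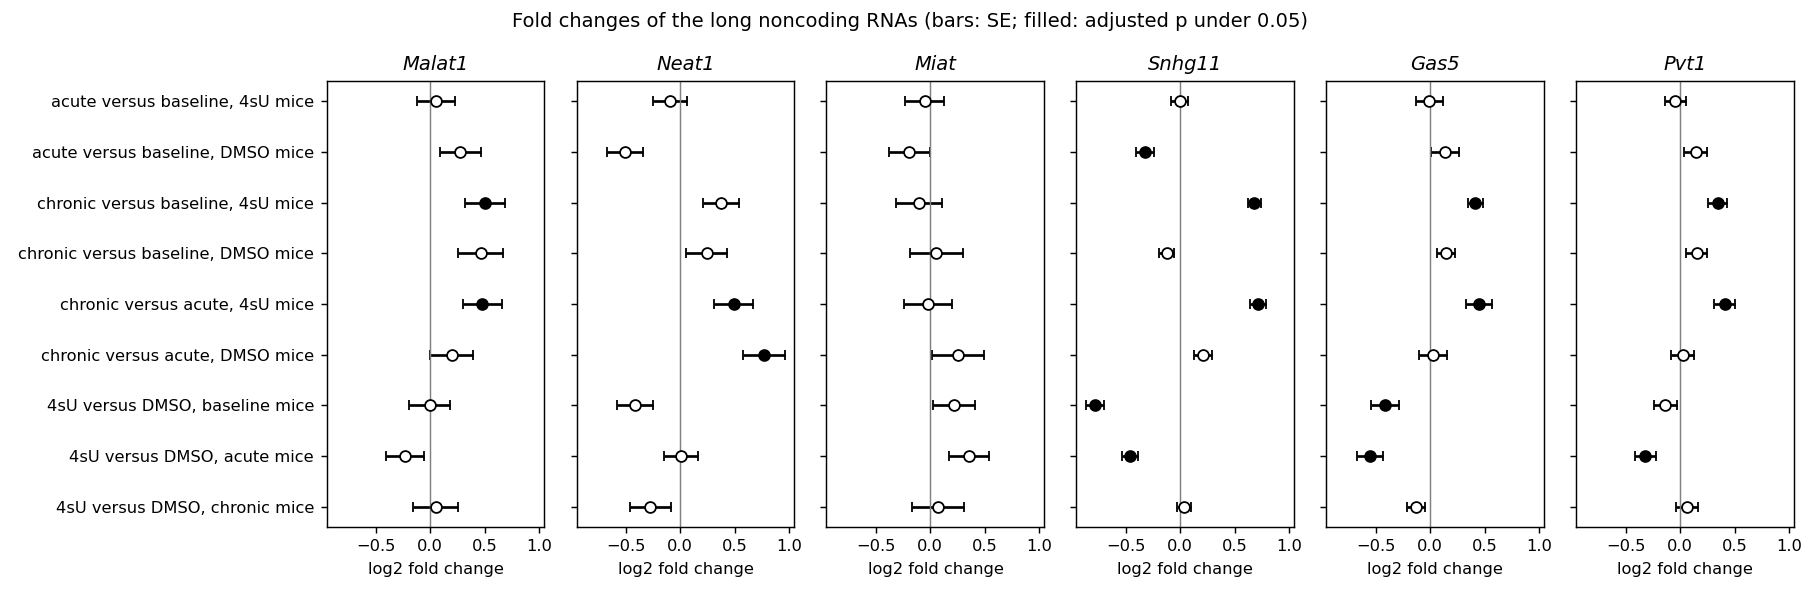
Log2 fold change of each gene in 9 comparisons (points, SE as bars; filled where the adjusted p of edgeR is under 0.05). Snhg11, Gas5 and Pvt1 are filled on the right in chronic mice with 4sU and Snhg11 and Gas5 on the left for 4sU against DMSO in baseline and acute mice, while Miat is filled nowhere.

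The injected compound was compared with its vehicle within each state of the mice. In baseline mice 2 of the 6 genes were lower with 4sU, where 41.9% of all genes were called and 20.7% in that direction: Snhg11 at 0.582-fold (-0.78 ± 0.08, adjusted p = 4.6e-07) and Gas5 at 0.752-fold (-0.41 ± 0.13, adjusted p = 0.014). Neat1 was at -0.41 ± 0.17 (adjusted p = 0.051), and passed under 6 other settings, with adjusted p between 0.0129 and 0.0463, and without baseline 4sU replicate 3 (0.0281) or baseline DMSO replicate 4 (0.0277). In acute mice 3 were lower with 4sU, where 48.3% of all genes were called and 24.8% in that direction: Snhg11 (-0.46 ± 0.08, adjusted p = 6.0e-05), Gas5 (-0.55 ± 0.12, adjusted p = 0.00087) and Pvt1 (-0.32 ± 0.10, adjusted p = 0.0098). Without acute DMSO replicate 2, the library with the highest 3′ UTR share, Snhg11 was at -0.53 and Gas5 at -0.41, both still past the threshold, and Malat1 then passed as well (-0.38, adjusted p = 0.0377, against 0.30 with all libraries). Miat was at 0.36 ± 0.18 in acute mice (adjusted p = 0.11), at 0.61 without acute DMSO replicate 5 (adjusted p = 0.00083) and at -0.07 without the 3 acute libraries low in glutamatergic markers (adjusted p = 0.777). In chronic mice, whose libraries all lie on 1 side of the division, 0 of the 6 were called and 0.137% of all genes were. There Snhg11 differed by 0.03 ± 0.07, with a 95% interval of -0.10 to 0.17, and Gas5 by -0.13 ± 0.08, with one of -0.29 to 0.03. The 4sU libraries of baseline mice stand in this comparison and in that of chronic with baseline mice, so the 2 sets of values are not independent.

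**Figure D4:**
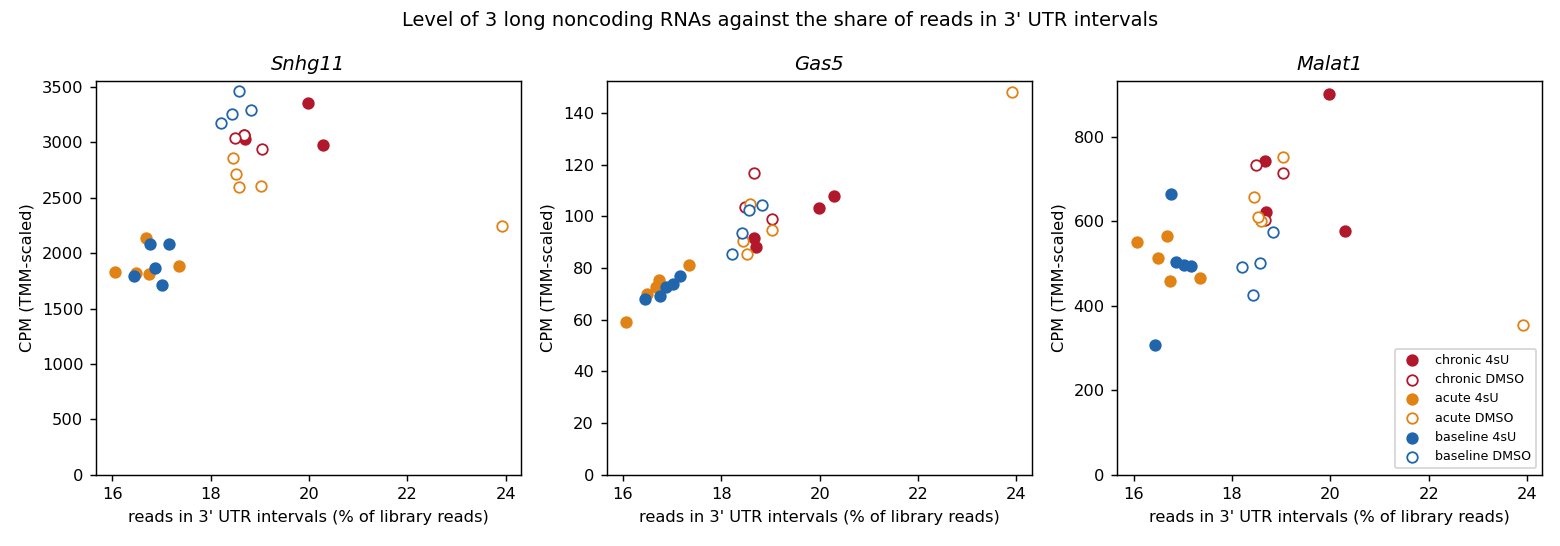
CPM of Snhg11, Gas5 and Malat1 (vertical) against the share of a library's reads in 3′ UTR intervals (horizontal), 1 point per library. The baseline and acute libraries with 4sU sit together at 16.1% to 17.4% with the lowest Snhg11 and Gas5, and the 1 point at 23.9% is acute DMSO replicate 2.

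Markers of other cells moved with the same libraries. The 15 oligodendrocyte and myelin markers had a mean of 8.88 to 9.11 and 8.48 to 8.79 log2 CPM in chronic mice with 4sU and with DMSO, 7.43 to 7.82 and 8.73 to 9.43 in acute mice, and 7.29 to 7.81 and 8.31 to 8.73 in baseline mice. With 4sU 14 of the 15 were called higher in chronic than in baseline mice, where 26.9% of all genes were. In baseline mice 14 of the 15 were called lower with 4sU than with DMSO, where 20.7% of all genes were. With DMSO, in the comparisons that called Snhg11 and Neat1, 9 of the 15 were called higher in acute than in baseline mice (median 0.62, with 2.51% of all genes called) and 8 lower in chronic than in acute mice (median -0.57, with 1.78% called). The 12 endothelial markers had 4.84 to 5.05 and 4.92 to 4.96 log2 CPM in chronic mice with 4sU and with DMSO, 3.96 to 4.68 and 4.47 to 4.87 in acute mice, and 4.10 to 4.399 and 4.91 to 5.005 in baseline mice, and 9 of 12 were called higher in chronic than in baseline mice with 4sU. Of the 12 glutamatergic markers 1 was called higher, 5 lower and 6 were not called in that comparison, where 4761 of 16096 genes were called lower. The median of these 12 was -0.67, against -0.02 for all genes. None of these 3 lists had a marker at 0 in any library. Astrocyte markers (12) had means of 7.70 to 8.16 and 7.63 to 7.80 log2 CPM in chronic and baseline mice with 4sU, with 5 higher and 3 lower in chronic mice. Microglia markers (12) had 5.18 to 5.43 and 5.22 to 5.54, with 2 higher and 4 lower, GABAergic neuron markers (12) had 5.45 to 5.69 and 5.61 to 5.73, with 2 higher and 4 lower, and choroid plexus and ependymal markers (12) had 3.03 to 5.28 and 4.97 to 5.30, with 0 higher and 1 lower. With DMSO the choroid plexus and ependymal markers had 5.31 to 5.78 log2 CPM in chronic, 0.496 to 5.72 in acute and 5.18 to 5.44 in baseline mice. Ttr, which the choroid plexus secretes, ran from 2.31 to 5465 CPM in the 5 acute DMSO libraries. Of these 12 markers 0 were called in the DMSO comparisons of acute with baseline and of chronic with acute mice, and 1 was at 0 in an acute library. In whole tissue fewer cells of a type and less RNA per cell cannot be told apart, and the part of these cells in the results for the 6 genes was not tested.

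Proteins of the compartments that Malat1, Neat1 and Miat belong to were counted over fixed lists. Of 20 nuclear speckle proteins, 17 were called higher and 1 lower in chronic than in baseline mice with 4sU, where 26.9% of all genes were called higher. Their median log2 fold change was 0.58 against -0.02 for all genes. Srsf10, a splicing regulator, was at 0.80 ± 0.05 (adjusted p = 1.8e-10) and Pnisr, a speckle protein rich in serine and arginine, at 0.73 ± 0.05 (adjusted p = 9.3e-10). In mice with DMSO 0 of the 20 and 0% of all genes were called between chronic and baseline, and the median of the 20 was 0.01. With 4sU against DMSO 1 was higher and 16 lower in baseline mice, where 20.7% of all genes were called lower. The median of the 20 was -0.55, and Srsf10 was at -0.85 ± 0.05.

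Of 25 paraspeckle proteins 15 were called higher and 6 lower in chronic than in baseline mice with 4sU, with a median of 0.29. Matr3, an RNA-binding protein of the nuclear matrix, was at 0.63 ± 0.05 (adjusted p = 2.5e-09) and Smarca4, a chromatin remodeller, at -0.71 ± 0.04 (adjusted p = 3.3e-10). In chronic against baseline mice with DMSO 0 of the 25 were called (median 0.01), and 0% of all genes were. After acute stress, as the mean of both arms, 0 of the 25 were called (median 0.03), against 2.39% of all genes. Of the 6 splicing factors known to bind Miat, 2 were called higher and 4 lower in chronic than in baseline mice with 4sU: Qk, an RNA-binding protein of glia, was at 1.19 ± 0.07 and Celf3, a neuronal splicing factor, at -0.74 ± 0.05, while Miat itself was at -0.10 ± 0.21. The counts of these lists lie beside 56.5% of all genes called in that comparison, with 4336 of 16096 genes higher and 4761 lower. Nothing particular to a list is read from the counts.

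Among 24 tested host genes of snoRNAs other than these, 11 were called higher and 0 lower in chronic than in baseline mice with 4sU (median 0.25), where 26.9% of all genes were called higher. With 4sU against DMSO in baseline mice 0 were higher and 6 lower (median -0.19), where 20.7% of all genes were called lower. Snhg1 was at 0.75 ± 0.14 in the chronic comparison (adjusted p = 0.00017) and at -0.71 ± 0.17 in the injection comparison (adjusted p = 0.0020). Eif4a2, a translation factor and host gene, was at 0.53 ± 0.05 and at -0.48 ± 0.09 in these. In mice with DMSO 0 of the 24 were called in chronic or in acute against baseline mice, where 0% and 2.51% of all genes were. Of 15 factors of nonsense-mediated decay, the pathway that degrades spliced Gas5 RNA, 4 were called higher and 7 lower in chronic than in baseline mice with 4sU (median -0.08), where 56.5% of all genes were called: Upf3b was at 0.81 ± 0.08 and the helicase Upf1 at -0.66 ± 0.05. Of 27 other brain long noncoding RNAs tested, 15 were called higher and 2 lower in that comparison (median 0.37, with 26.9% of all genes called higher), among them Rian at 0.37 ± 0.05 and Sox2ot at 0.94 ± 0.12. After acute stress, averaged over both arms, 1 of the 27 was called, against 2.39% of all genes: Cerox1, a cytoplasmic RNA linked to mitochondrial complex I, at 0.35 ± 0.08 (adjusted p = 0.026).

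Neighbouring genes did not all follow. Zbtb37 lies on the opposite strand and starts 67 bases before the counted Gas5 exons, so the 2 genes run apart, and the outer of the Gas5 starts shown above lies within it. Zbtb37 was called higher in chronic than in baseline mice with 4sU (0.83 ± 0.12, adjusted p = 1.0e-05), where 26.9% of all genes were, and than in acute mice with 4sU (0.71 ± 0.24, adjusted p = 0.017). For 4sU against DMSO, where Gas5 was called lower, Zbtb37 did not pass in baseline mice (-0.17 ± 0.27, adjusted p = 0.64) or acute mice (-0.46 ± 0.25, adjusted p = 0.13). Each of these comparisons crosses the division in 3′ UTR share. Beside Snhg11 lies Snhg17, also a snoRNA host. It was at 0.44 ± 0.09 in chronic against baseline mice with 4sU (adjusted p = 0.00032) and at -0.52 ± 0.09 for 4sU against DMSO in baseline mice (adjusted p = 0.00012). Myc, 47625 bases before Pvt1, did not pass in chronic against baseline mice with 4sU, where Pvt1 did (Myc at -0.22 ± 0.14, adjusted p = 0.19). In chronic against acute mice with 4sU Myc was called lower (-0.41 ± 0.14, adjusted p = 0.016) and Pvt1 higher (0.41 ± 0.09), where 47.2% of all genes were called. For 4sU against DMSO in acute mice Myc was called higher (0.49 ± 0.13, adjusted p = 0.003) and Pvt1 lower (-0.32 ± 0.10), where 48.3% were. Both comparisons use the acute 4sU libraries, so they are not independent, and both cross the division in 3′ UTR share. On 1 side of it, in chronic against acute mice with DMSO, Myc was at -0.05 ± 0.15 and Pvt1 at 0.02 ± 0.10. For 4sU against DMSO in chronic mice Myc was at 0.12 ± 0.16 and Pvt1 at 0.06 ± 0.10, and none of these passed. The sources used here do not say whether counting used strand, so reads of Zbtb37 and Gas5 where they meet cannot be told apart. Of the genes inside these loci, Gm5512 spans Malat1 and Neat1 with 2 to 15 counts per library and Snord47 lies in a Gas5 intron with 0 to 9 counts.

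The genes most like each member were sought by Pearson's r of log2 CPM after subtracting group means, over 26 libraries and 13941 genes. Miat was closest to Gng2, a G protein subunit, at r = 0.966, followed by Ppfia2 and Oxr1. Gas5 was closest to Cox17, a copper chaperone of mitochondria, at 0.937, and Snhg11 to Pnisr, the speckle protein above, at 0.936, with the imprinted long noncoding RNA Meg3 next at 0.856. Neat1 was closest to Mthfd2, a mitochondrial folate enzyme, at 0.875, Malat1 to Ikzf5, a zinc finger factor, at 0.861 and Pvt1 to Ezr, a linker of membrane and actin, at 0.770. Between the 6 genes themselves r ran from -0.457 for Neat1 and Snhg11 to 0.643 for Malat1 and Snhg11. These values describe the libraries, which share depth and tissue makeup, and carry no test.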

How the data were processed

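Amygdala RNA was sequenced in 26 libraries of 6 groups. The authors deposited 2 tables of exon counts per gene symbol, with no normalization, which share 9 baseline columns that differed in 0 values and were joined. The mm10 build and the tools featureCounts 2.0.1, HISAT2 2.1.0, cutadapt 3.1 and SAMtools 1.9 are listed, with no roles, per the submitters' processing notes. Whether counting used strand, and how reads that match several places were handled, is not given in the sources used here. Values of overlapping genes are therefore uncertain. Per 3′ UTR interval the authors deposited counts of reads, covered T positions and T-to-C conversions, which per the file headers came from slamdunk 0.4.3. A 3′ UTR share is the sum over the 23996 intervals of the authors' deposited CPM values, scaled to the library's reads per the file headers, as a percentage. The authors also deposited exon counts per Ensembl transcript for 6 cortex libraries.

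CPM was computed with TMM factors of edgeR 4.0.16 (R 4.3.3). Tests were edgeR's quasi-likelihood test with 1 coefficient per group, robust estimates and the default low-count filter, in 1 fit of the baseline and acute groups (15995 genes), 1 of the baseline and chronic groups (16096) and 1 of all 6 groups for chronic against acute (16310). P-values were Benjamini-Hochberg adjusted over all genes of a fit, with a threshold of 0.05. The code of the fits was run on simulated independent counts for some of the comparisons. These held neither the division in 3′ UTR share nor differences in tissue makeup, so nothing about the real libraries is read from them. Alternatives were no filter, relative log expression and upper-quartile factors, DESeq2 1.42.0, other groups in the fit, the replicate number as a block, and each library left out. Leaving out the 4 libraries low in glutamatergic markers was chosen after seeing the data. No 2 replicates were identical, and the closest of 45 pairs differed by 3.65 times the counting variance.

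The 6 genes, the gene and marker lists and the tests were chosen with earlier results of these data known. Genes named beside the 6 are their nearest tested neighbours (some are not reported here), the 3 most alike by r among genes at 1 CPM or more, up to 4 genes of smallest p from each list, and Nr3c1, Nr3c2, Fkbp5, Sgk1, Tsc22d3 and Myc.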

Additional observations from a re-analysis of the deposited data

Results flagged for a closer look

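Among 30 sets of 4 or 5 libraries of 1 group and gene, 2 held a library far from the others by Dixon's test, which chance gives in about 1 of 20 sets. Miat in baseline DMSO replicate 4 was at 372.2 CPM, with the other 3 libraries of the group at 453.5 to 469.6 CPM. Snhg11 in acute 4sU replicate 2 was at 2139 CPM, with the other 4 libraries at 1815 to 1889 CPM. The change of Snhg11 in chronic against baseline mice differed between the injection arms: the difference of log2 fold changes (4sU minus DMSO) was 0.8054 by edgeR's interaction test, and each chronic library lay above each baseline library with 4sU and below each with DMSO. The arm with 4sU crosses the division in 3′ UTR share (18.7% to 20.3% in chronic and 16.4% to 17.2% in baseline libraries) and the arm with DMSO does not (18.5% to 19.04% and 18.2% to 18.8%).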

How the results depend on the processing

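The 17 calls among 72 results (6 genes in 12 comparisons) kept their direction under all settings run, and the results that reversed had an absolute log2 fold change of at most 0.357 and did not pass. Under the settings other than leaving out 1 library at a time, 468 results kept direction and side of the threshold, 17 reversed, 13 newly passed and 6 no longer passed. Leaving out 1 library gave 711, 49, 11 and 21 of these. Where a call or count moved, the cause was not tested.

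Without a low-count filter 0 of the 6 genes were called in acute against baseline mice with DMSO. In the difference of the chronic change between arms 2 genes in place of 1 were called without that filter, with relative log expression factors, with DESeq2 and without the libraries low in glutamatergic markers, a setting chosen after seeing the data. In chronic against acute mice with DMSO 0 were called in a fit of 4 groups, with the replicate block and without those libraries. Neat1 in acute mice with 4sU against DMSO turned to -0.00836 (no filter), -0.002338 (relative log expression), -0.01662 (upper quartile), -0.002395 (DESeq2) and -0.1251 (without the libraries low in glutamatergic markers).

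Without those libraries Miat turned to 0.09126 (acute, mean of both arms), 0.234 (acute, DMSO), -0.2855 (acute, difference of arms), -0.06795 (4sU against DMSO in acute mice) and -0.1303 (in chronic mice). Malat1 turned to -0.03272 (acute, DMSO), 0.08359 (difference of arms), 0.07824 (4sU against DMSO in acute mice) and -0.03213 (in chronic mice), and in chronic against acute mice with DMSO Gas5 turned to -0.1785 and Pvt1 to -0.05083.

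Counts over all genes moved as follows. DESeq2 called 667 genes after acute stress as the mean of arms, 96 with 4sU, 819 with DMSO and 20 in the difference of arms, 11 in chronic against baseline mice with DMSO, 147 for 4sU against DMSO in chronic mice and 559 in chronic against acute mice with DMSO. Without the libraries low in glutamatergic markers these counts were 1112, 84, 2391 and 313 for acute stress, 12 for 4sU against DMSO in chronic mice and 85 for chronic against acute mice with DMSO. With all 6 groups in the fit 67 genes were called after acute stress with 4sU and 8 for 4sU against DMSO in chronic mice, and with 4 groups 99 in chronic against acute mice with DMSO.

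Same-numbered replicates of different groups did not deviate together (58 pairs, r from -0.4 to 0.341, median -0.0208), so the numbers were not taken to pair libraries. With the replicate block 11 genes were called for 4sU against DMSO in chronic mice. Miat in chronic against acute mice with 4sU turned to 0.04606, Snhg11 in acute mice with DMSO was at -0.3405 (adjusted p = 0.0572 with the block) and Neat1 there at -0.5417 (0.038), and Neat1 in chronic against acute mice with DMSO was at 0.7485 (0.0932).

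Leaving out 1 library at a time gave 249 to 787 genes after acute stress as the mean of arms, 25 to 42 with 4sU, 143 to 906 with DMSO and 0 to 12 in the difference of arms. It gave 0 to 1 in chronic against baseline mice with DMSO, 2 to 19 for 4sU against DMSO in chronic mice and 45 to 638 in chronic against acute mice with DMSO. Of the 6 genes 3 to 5 were then called in chronic against baseline mice with 4sU, 4 to 5 in chronic against acute mice with 4sU, 2 to 3 and 3 to 4 for 4sU against DMSO in baseline and acute mice, 1 to 2 in the chronic difference of arms, and 0 to 1 in acute against baseline and chronic against acute mice with DMSO.

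The ranges of log2 fold changes that crossed 0 when 1 library was left out were these. In acute against baseline mice with 4sU, Gas5 lay at -0.05559 to 0.05227, Malat1 at -0.07879 to 0.1836, Miat at -0.1323 to 0.007501, Neat1 at -0.1612 to 0.006719 and Snhg11 at -0.05099 to 0.02993. Gas5 lay at -0.01215 to 0.1836 in acute mice with DMSO, at -0.007864 to 0.0885 in the mean of arms, at -0.1902 to 0.008566 in their difference and at -0.05337 to 0.1812 in chronic against acute mice with DMSO, where Pvt1 lay at -0.04394 to 0.06638. For 4sU against DMSO, Malat1 lay at -0.1378 to 0.1248 in baseline and -0.08322 to 0.1259 in chronic mice, Miat at -0.1303 to 0.1989 and Snhg11 at -0.001344 to 0.04682 in chronic mice, and Neat1 at -0.1173 to 0.0943 in acute mice. In chronic against baseline mice Miat lay at -0.2261 to 0.06828 with 4sU, -0.0763 to 0.2527 with DMSO and -0.3138 to 0.015 in the difference of arms, and at -0.1889 to 0.1145 in chronic against acute mice with 4sU. In that difference of arms Malat1 lay at -0.08756 to 0.1754 and Neat1 at -0.008786 to 0.3763.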

Other observations

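In 6 libraries of mouse auditory cortex, counted per Ensembl transcript, the full-length Malat1 transcript had 1540, 915 and 1262 CPM with 4sU and 1109, 1087 and 673.1 CPM without 4sU, and the groups overlap. Its other 4 transcripts in that table are short pieces within the gene. Values per transcript depend on how reads shared by transcripts were assigned, which the sources used here do not give, so they were not set beside the amygdala levels. The table holds 35 Gas5, 14 Pvt1, 10 Miat, 10 Snhg11 and 7 Neat1 transcripts, which were not analysed further here.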
